A study of Mus musculus with 4 samples.

Results

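CpG dyads, the cytosines that face each other on opposite strands of a CpG, were compared strand by strand at 173763 autosomal positions in 4 mouse tumors. A dyad was taken where the cytosine on the forward strand of the reference (F) and the cytosine 1 base further on the reverse strand (R) each had at least 20 reads in every tumor. These dyads hold 347526 of the 1058541 autosomal CpG cytosines with that coverage in every tumor, or 32.8%. With the other chromosomes, the series has 1081201 such cytosines. The value of a dyad in a tumor is the methylation percent of F minus that of R, in percentage points.

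The tumors came from lung adenocarcinoma cells of 129Sv/Ev mice, with 2 tumors of the parental line 344SQP and 2 of its anti-PD1-resistant derivative 344SQR. Female syngeneic mice of strain 129Sv/Ev, aged 12 to 16 weeks, received the cells under the skin of the leg. Anti-PD1 antibody was given at 10 mg/kg from day 4 for a total of 4 doses, and DNA was taken 24 hours after the last dose. All 4 mice received the antibody, so there was no untreated tumor, and both lines descend from 1 model. The DNA came from whole tumors, in which cancer and host cells are mixed.

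A CpG reads the same on both strands, so each copy of DNA offers a pair of cytosines that can be methylated together. After replication the new strand carries no methyl groups; UHRF1 binds the half-modified site and DNMT1 methylates the new cytosine, which keeps both strands alike through cell division. A site with a methyl group on a single strand is called hemimethylated. Reduced representation bisulfite sequencing (RRBS) cuts DNA with MspI at CCGG, selects short fragments and reads methylated cytosines as C and unmethylated ones as T. The protruding ends that MspI leaves are filled in with unmethylated cytosine before sequencing, so a filled-in base carries no record of the tumor's methylation.

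Values of the tumors are given below in the order 344SQP replicate 1, 344SQP replicate 2, 344SQR replicate 1 and 344SQR replicate 2. Median coverage of F over the dyads was 119, 137, 170 and 174 reads, and that of R was 118, 137, 170 and 173 reads. The reads of a strand are an average over many cells, so a dyad shows only a net difference: copies methylated on F alone and copies methylated on R alone cancel out. In whole tumors, a change in the share of cells with an asymmetric dyad and a change in asymmetry within cells cannot be told apart.

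Of the 173763 dyads, 122923 (70.7%) lay in promoters, defined as 1000 bp before to 500 bp after a transcription start, of 13765 genes. The other 50840 dyads lay outside promoters. Mean methylation over both strands and all tumors was under 20% at 129167 dyads and 80% or more at 15538 dyads. Among promoter dyads, 88.3% were in the lowest of 5 classes of 20 points, against 40.5% outside promoters, where 27.4% were in the highest class. A total of 40280 dyads (23.2%) were the CpG of an MspI site itself, and 133483 were inner dyads, between the sites of a fragment. The reads were 50 bases long, so an inner dyad is read on both strands only in a short fragment; the median fragment was 57 bases, and 99.1% of inner dyads lay in fragments of at most 99 bases.

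The strands of a dyad were close to each other in every tumor. Mean methylation of F was 17.5%, 20.01%, 16.8% and 18.7%, and mean methylation of R was 17.5%, 19.99%, 16.8% and 18.7%. The mean of F minus R lay between -0.00266 and 0.0193 points. The strands were within 10 points of each other at 93.8%, 90.3%, 95.2% and 93.6% of dyads, and 20 or more points apart at 1.24%, 1.96%, 0.966% and 1.27%. The correlation of F with R over the 173763 dyads was 0.978, 0.974, 0.981 and 0.980, as a description, since neighbouring dyads share reads and fragments. 344SQP replicate 2 had the lowest share within 10 points and the lowest correlation.

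The spread of F minus R exceeded what counting reads gives. Its standard deviation over dyads was 6.21, 7.26, 5.71 and 6.28 points, while binomial counting of both strands accounted for 3.58, 3.32, 2.99 and 2.94 points. The excess SD, which is the spread left once the counting variance is subtracted, was 5.07, 6.46, 4.87 and 5.54 points. In inner dyads alone it was 2.87, 4.23, 2.71 and 3.36 points, and in dyads at MspI sites 9.16, 10.97, 8.83 and 9.75 points. MspI sites other than the read-end dyads described below had 6.01, 7.85, 5.65 and 6.69 points, above inner dyads in each tumor.

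Over all dyads the lines overlapped in most measures of concordance, but not in the correlation of the strands. The mean absolute difference of the strands was 2.93, 3.59, 2.56 and 2.94 points, and 344SQR minus 344SQP was -0.510 points (exact permutation p = 0.667, n = 2 and 2). For the excess SD the line difference was -0.560 points (exact permutation p = 0.667), and for the share within 10 points it was 2.32 percentage points (exact permutation p = 0.667). The lines overlapped in these 3 measures, with 344SQP replicate 1 between or close to the 344SQR tumors. The correlation of the strands given above did not overlap between the lines (exact permutation p = 0.333, the smallest that 2 against 2 tumors can give). Without 344SQP replicate 2 the line difference in excess SD was 0.131 points, on the other side of 0. The line difference of the mean of F minus R was 0.00227 points (exact permutation p = 1) and fell to -0.00869 points without 344SQP replicate 1 and to -0.00180 points without 344SQR replicate 1.

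Among inner dyads the lines stood apart in some measures. The mean absolute difference was 2.01 and 2.51 points in 344SQP and 1.68 and 1.94 points in 344SQR, which do not overlap (exact permutation p = 0.333). The share within 10 points was 96.2% and 93.6% in 344SQP and 97.3% and 96.3% in 344SQR (exact permutation p = 0.333). Median coverage of these dyads was higher in the 344SQR tumors, at 179 and 182 reads on F against 123 and 142 reads, and both measures include counting noise. The excess SD of inner dyads, which does not, overlapped between the lines, with 344SQP replicate 1 at 2.87 points between the 344SQR tumors.

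By class of methylation, the excess SD of inner dyads was 1.40, 2.54, 1.21 and 1.69 points where mean methylation was under 20%, and 5.68, 9.07, 5.35 and 7.42 points at 20 to 40%. It was 6.97, 9.44, 6.57 and 7.54 points at 40 to 60%, 6.62, 8.09, 6.78 and 6.96 points at 60 to 80%, and 3.18, 4.08, 2.96 and 4.15 points at 80% or more. The 3 classes between had the higher values in every tumor, which is set in part by the classes themselves: they are cut on the mean of both strands, so a wide difference is possible only near the middle. The share of inner dyads within 10 points dropped from 99.2%, 97.9%, 99.6% and 99.2% in the lowest class to 77.0%, 68.3%, 82.2% and 79.6% at 40 to 60%. Counting error is widest in the middle classes; the excess SD leaves it out and the share within 10 points does not.

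Promoter dyads were the more symmetric ones, and they were also the less methylated ones. The excess SD in promoters was 3.64, 5.02, 3.44 and 4.26 points, and outside promoters 7.48, 9.02, 7.24 and 7.82 points. The difference was -3.85, -4.00, -3.80 and -3.56 points (mean -3.80 ± 0.182 SD, exact permutation p = 0.125, the smallest that 4 signs can give). Inner dyads alone gave -1.96, -2.21, -1.99 and -2.08 points. Within a class of methylation the sign varied: inner promoter dyads were below inner dyads elsewhere by -0.639 points on average under 20%, by -1.14 points at 40 to 60% and by -1.31 points at 60 to 80%, in all 4 tumors. At 20 to 40% the mean difference was 0.0646 points with tumors on both sides of 0. At 80% or more the 1039 inner promoter dyads had the larger excess SD in all 4 tumors, by 2.57, 0.236, 1.34 and 0.0390 points.

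As a group, MspI sites a fixed distance from the next site had a wider strand difference than inner dyads or other MspI sites. Their excess SD was 26.5, 29.7, 25.9 and 27.3 points. The largest single differences among the named dyads, at Rps19 (93.25 points) and Gm22605 (97.75 points), stood at MspI sites with other spacings. Where 2 MspI sites lie 48 or 49 bases apart, base 49 or 50 of a read of 50 bases that starts at the first falls on the cytosine of the second. There were 2896 such dyads, called read-end dyads here, and 2867 of them had the neighbouring site at that distance on 1 side only. They were singled out after the values by distance had been seen, and whether filled-in bases or trimming give these values was not tested.

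At a distance of 48 bases, the strand read at the read end (n = 1458 strands) had a mean methylation of 6.41%, 6.98%, 5.85% and 6.80%, against 21.3%, 24.3%, 20.3% and 22.4% on the opposite strand of the same dyads. The difference was -14.9, -17.3, -14.5 and -15.6 points. At 49 bases (n = 1409 strands) the difference was -14.8, -16.6, -14.3 and -15.4 points. At a distance of 47 bases it was only -1.90, -1.73, -1.63 and -2.07 points, and at 50 bases -1.77, -1.26, -1.37 and -1.11 points. The step was thus confined, among distances from 40 to 60 bases, to 48 and 49, and it was present in all 4 tumors of both lines.

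Densely methylated sites show the step most plainly. At 111 dyads with a site 48 bases away and at least 80% methylation on the opposite strand, the opposite strand averaged 94.0%, 94.4%, 91.6% and 88.3%, while the read-end strand averaged 24.1%, 22.8%, 21.6% and 23.0%. With the site 50 bases away (38 dyads) the corresponding strand averaged 92.7%, 93.9%, 89.9% and 87.4%. A cytosine of an MspI site can also be read from its other fragment, where it lies at the start of the read. Where that other fragment was over 500 bases (227 dyads), the read-end strand was at 4.98%, 4.88%, 4.81% and 5.46%, with 50.5%, 52.7%, 47.2% and 45.1% on the opposite strand, a difference of -45.5, -47.8, -42.4 and -39.6 points. Where the other fragment was 40 to 220 bases (1284 dyads), the read-end strand was at 9.03%, 10.2%, 8.12% and 9.28%, the opposite strand at 19.2%, 22.2%, 18.4% and 20.9% and the difference was -10.1, -11.96, -10.3 and -11.7 points. Where it was under 30 bases (868 dyads), the read-end strand was at 3.82%, 3.80%, 3.57% and 4.16%, the opposite strand at 14.3%, 16.5%, 13.7% and 16.2% and the difference was -10.5, -12.7, -10.1 and -12.02 points. The level of the opposite strand differed between these groups. At dyads with 80% or more on the opposite strand, that strand averaged between 88.1% and 97.0% in every group. There the read-end strand was at 40.3%, 38.0%, 36.0% and 36.4% where the other fragment was 40 to 220 bases (80 dyads). It was at 7.87%, 7.41%, 8.27% and 9.68% over 500 bases (76 dyads) and 34.9%, 33.3%, 32.3% and 32.9% under 30 bases (20 dyads). Why these groups differ was not tested.

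The fragments below show this arrangement, in sequence of the RefSeq GRCm38.p6 genome on the forward strand, with the MspI sites at both ends in capitals. Gm20731 is shown because both ends of its fragment, chr4:108625461-108625512 (GRCm38), were asymmetric in opposite directions. At its left site, F was 97.1%, 99.3%, 98.1% and 96.6% and R was 7.1%, 9.8%, 9.1% and 7.8%. At its right site, F was 9.2%, 10.2%, 10.4% and 11.9% and R was 100%, 100%, 97.3% and 100%. The strand that was low at each end is the one whose cytosine falls on base 49 of a read from the other end, and the 4 tumors did not differ in this. Srcap, which encodes a chromatin remodelling ATPase, has its fragment at chr7:127516015-127516067, and Ttc23l has its fragment at chr15:10558594-10558645.
Gm20731: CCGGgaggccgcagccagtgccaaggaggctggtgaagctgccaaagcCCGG
Srcap: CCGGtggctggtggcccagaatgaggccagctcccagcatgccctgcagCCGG
Ttc23l: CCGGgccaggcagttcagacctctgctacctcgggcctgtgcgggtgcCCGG

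edgeR's quasi-likelihood test of F against R, with the tumors as blocks, was run at the 95272 dyads with at least 10 methylated and 10 unmethylated reads over all strands and tumors. It called 3627 dyads asymmetric (3.81% of those tested) at an adjusted p under 0.05, of which 1822 (1.91%) were higher on F and 1805 (1.89%) higher on R. At an unadjusted p under 0.05 there were 12688 (13.3%), and a Mantel-Haenszel test with the tumors as strata, which allows for no spread between tumors beyond counting, called 15711 (16.5%). Of the 3627, 3514 had the same sign in all 4 tumors and 1005 had a mean difference of 20 points or more. The count was 2202 without 344SQP replicate 1 and 2240 without 344SQR replicate 1.

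Read-end dyads supplied much of that count. Of 2881 tested, 1507 were called (52.3%), which is 41.5% of all calls. Read-end dyads were 2881 of the 95272 dyads tested and 1.67% of all dyads. Of the 1500 called with a single read-end strand, that strand was the lower one at 1498. When read-end dyads were left out and edgeR was fitted again, with p-values adjusted anew, 1594 of 92391 dyads were called (1.73%). Inner dyads gave 1334 calls of 55599 tested (2.4%), 667 in each direction, and MspI sites not at a read end gave 786 of 36792 (2.14%). Fitted by themselves, with p-values adjusted among themselves, the inner dyads gave 1091 calls.

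Large and repeatable differences were rare away from read ends. In all 4 tumors, F and R were 20 or more points apart with the same sign at 625 dyads, 332 with F higher and 293 with R higher. Read-end dyads made up 426 of them, other MspI sites 89 and inner dyads 110, or 0.0824% of all inner dyads. At 50 points or more there were 239, of which 195 were at read ends, 31 at other MspI sites and 13 inner.

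With read-end dyads included, the strand difference of dyads at MspI sites under 20% methylation varied with fragment length. Each strand of a dyad at an MspI site is read from a different fragment, F from the one to the right and R from the one to the left. Among dyads under 20% methylation, a strand whose fragment was under 30 bases had 2.67%, 2.92%, 2.40% and 2.80% methylation, against 8.44%, 9.11%, 7.59% and 8.29% on the opposite strand (n = 963 strands). At a read-end dyad, the strand of the other fragment is also the read-end strand. Over all methylation classes, 868 read-end dyads had that fragment under 30 bases and 1284 had it at 40 to 220 bases. Neither this difference nor those of longer fragments given next were therefore separated from the one at read ends. For fragments of 30 to 48 bases the strand stood 1.36, 1.36, 1.40 and 1.34 points above the opposite one. For fragments of 160 to 220 bases it stood below it by -2.06, -1.99, -2.003 and -2.03 points. These values group each strand by its own fragment, and the 2 fragments of a dyad were not compared with each other.

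In inner dyads both strands come from the same fragment, so they cannot be grouped in this way. By the place of a cytosine in its read, the mean of that strand minus the opposite one was 0.170, 0.257, 0.0650 and 0.245 points at 1 to 4 bases from the start of the read and -0.0613, -0.0838, -0.0397 and -0.0694 points at 40 to 49 bases. The share called was 2.44% where a strand lay 20 to 29 bases from the start of its read, 2.27% at 30 to 39, 1.92% at 40 to 47, 1.84% at 48 and 3.08% at 49, the last base, against 2.4% of all inner dyads. Among the 90 calls at the last base, the strand there was the lower one 50 times and the higher one 43 times. These are counts of strands, so a dyad with both strands at the last base enters both. Calls with 20 points or more and the same sign in every tumor made up 1.1% of the 2921 tested dyads there, against 0.403% of all inner dyads tested. At those large calls the last-base strand had a median of 0.532 times the coverage of the opposite strand, against 0.734 times at 40 to 47 bases. Whether base quality or trimming at the last base has a part in these calls was not tested.

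Of the 1334 called inner dyads, 1038 were under 20% methylation (3.79% of those tested). The test needs 10 methylated reads, which left 27400 of the 105041 inner dyads of that class, so shares of tested dyads cannot be compared between classes. Of the inner promoter dyads tested 3.31% were called (1017 of 30738, from 99640 before the filter), and of those outside promoters 1.28% (317 of 24861, from 33843). The same filter thus removed more promoter dyads, and the calls make up similar parts of all inner dyads in both places. The promoter calls were small: their median absolute mean difference was 4.9 points, against 10.1 points outside promoters. Most promoter calls, 888 of 1017, were at dyads under 20% methylation, with a median absolute mean difference of 4.2 points and a 95th percentile of 17.5 points. In the same class, the 150 calls outside promoters had a similar median of 4.16 points. Outside promoters, 1.08% were called in exons, 1.53% in introns and 1.25% between genes. In repeat-masked sequence 181 of 3294 tested inner dyads were called (5.49%, from 6524 before the filter). In unmasked sequence 1153 of 52305 were called (2.2%, from 126959 before the filter). The difference between these shares was not tested, nor was the part of reads from other copies of a repeat.

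Some inner calls shared a fragment, while 769 called dyads were alone in theirs. Of 23936 fragments with a tested inner dyad, 979 had a called one and 210 had 2 or more, with up to 13 in 1 fragment. In 202 of those 210, every called dyad had the same direction. Dyads of a fragment are read by the same reads, so such calls are not separate observations.

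The asymmetry of a dyad recurred across tumors to a similar extent within and between lines. The covariance of F minus R between tumors, as its square root, was 1.95 points for the pair of 344SQP tumors and 2.05 points for the pair of 344SQR tumors over inner dyads, and from 1.87 to 2.11 points for pairs across the lines. The corresponding correlations were 0.178 and 0.280 within lines and from 0.167 to 0.290 across lines, over 133483 dyads that share fragments and library depth. The lowest values involved 344SQP replicate 2 and the highest joined 344SQP replicate 1 with 344SQR replicate 1. Over all dyads the square root of the covariance was 4.42 and 4.28 points within lines and 4.22 to 4.39 points across them.

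Among promoter dyads, the 5 called dyads with the largest positive and the 5 with the largest negative mean difference were all at MspI sites, and 7 of those 10 were read-end dyads. Besides Gm20731, Srcap and Ttc23l, the read-end ones were near Fancd2os, Naa11 and Gm36550. At Srcap (chr7:127516016), F was 98.9%, 94.2%, 98.6% and 95.8% and R was 8.2%, 9.2%, 2.8% and 4.4%. At Naa11 (chr5:97392400), which encodes a catalytic subunit of an N-terminal acetyltransferase, F was 7.2%, 6.2%, 9.2% and 3.3% and R was 97.8%, 100%, 98.5% and 97.6%. The same strand was low in every tumor. R at Srcap was lower in both 344SQR tumors than in both 344SQP tumors, while the lines overlapped on both strands at Naa11.

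Other promoter dyads of that group were at MspI sites with other spacings, and 2 of them are given here. At Rps19 (chr7:24884812), which encodes a protein of the small ribosomal subunit, F was 100%, 98.5%, 99.2% and 100% and R was 8.0%, 4.8%, 6.2% and 5.7%, at 124 to 193 reads. edgeR gave a log2 odds difference of 11.30 (adjusted p = 3.34e-11). At Tsen15 (chr1:152386489), a subunit of the tRNA splicing endonuclease, F was 98.7%, 97.8%, 95.9% and 95.9% and R was 10.8%, 1.6%, 6.8% and 3.5%. The next MspI sites lay 54 and 24 bases away at Rps19 and 65 and 42 at Tsen15, to the left and right. Each of them was asymmetric in all 4 tumors without overlap of the strands.

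Outside promoters, 7 of the 10 dyads chosen in the same way were also at read ends. At the exonic MspI site of Syne2 (chr12:75923045), which encodes a nuclear envelope protein, F was 93.2%, 98.0%, 95.5% and 94.5% and R was 0%, 2.0%, 3.3% and 2.8%. At that of Wwc2 (chr8:47828371), F was 6.5%, 4.0%, 7.0% and 9.8% and R was 100%, 99.4%, 98.8% and 98.3%. The fragments of Syne2 at chr12:75923044-75923096 and of Wwc2 at chr8:47828322-47828373 are printed with their MspI sites in capitals, as a pair that is read from opposite ends. Of the 10 dyads, 6 lay in repeat-masked sequence, between genes. They carry the names of the nearest starts, Gm11367 (10623 bp away), Olfr340 (11024 bp), Reg3b (17734 bp), Gm22605 (21930 bp), 9330159F19Rik (31657 bp) and Gm13794 (248013 bp), as do other dyads between genes below.
Syne2: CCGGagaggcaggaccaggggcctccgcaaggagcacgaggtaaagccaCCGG
Wwc2: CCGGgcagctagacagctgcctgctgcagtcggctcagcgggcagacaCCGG

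The single inner dyad of that group was in an exon of Gm26703 (chr5:104119451), 43 and 37 bases from its MspI sites. F was 96.0%, 100%, 97.9% and 96.3% and R was 0%, 2.6%, 0.6% and 3.6%, at 101 to 165 reads on R and 124 to 164 on F. edgeR's log2 odds difference was 11.45 (adjusted p = 6.77e-11), and all 4 tumors had the same direction. The tumors are of strain 129Sv/Ev and the reference is of strain C57BL/6J; whether the strains differ in sequence at this or any other dyad was not tested.

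Because read-end and other MspI sites took nearly all places, the same choice was repeated among inner dyads, after the values had been seen. In promoters the dyads higher on F were near Gm49381, 1700030C10Rik, Pdlim1, Mir1936 and Gm6345, and those higher on R were near Hspa12a, Gm4799, Fat3, Stac and 1600014C10Rik. At Pdlim1 (chr19:40271369), which encodes a PDZ and LIM domain protein, F was 49.0%, 44.9%, 43.8% and 42.5% and R was 0.6%, 0.7%, 0% and 1.6%, at 151 to 576 reads. The strand difference there was 48.4, 44.2, 43.8 and 40.9 points (mean 44.3 ± 3.09 SD, n = 4; log2 odds difference 6.68, edgeR adjusted p = 1.79e-09). F stood near the middle of the scale in each tumor while R was nearly bare. F and the strand difference were lower in 344SQR without overlap, by little in the strand difference (44.2 against 43.8 points at the closest), while R overlapped. The line term was not called there (edgeR interaction, unadjusted p = 0.667).

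At Hspa12a (chr19:58860859), an atypical member of the HSP70 family, F was 26.2%, 20.6%, 14.4% and 15.9% and R was 97.0%, 98.2%, 100% and 97.7%. At Fat3 (chr9:16502172), an atypical cadherin, F was 37.2%, 73.2%, 17.3% and 21.8% and R was 100%, 100%, 93.3% and 96.4%. At Stac (chr9:111690309), F was 0%, 5.1%, 0% and 6.9% and R was 32.0%, 61%, 44.3% and 74.7%. All 3 dyads have a cytosine on the last base of a read, where coverage was as low as 30 reads at Fat3 on R and 29 reads at Stac on F. At Stac the last-base position holds for both strands, and at Fat3 and Hspa12a the last-base strand was the high one.

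At 1600014C10Rik (chr7:38183903), whose MspI sites lie 46 and 13 bases away, F was 2.9%, 0%, 5.0% and 7.7% and R was 44.8%, 59.7%, 48.2% and 51.1%. Coverage was 136 to 207 reads on F and 639 to 926 on R, so R had several times the reads of F. The windows of Pdlim1 (chr19:40271349-40271390), Hspa12a (chr19:58860839-58860880) and 1600014C10Rik (chr7:38183883-38183924) are printed with the asymmetric CpG in capitals, since it is the same palindrome on both strands in each.
Pdlim1: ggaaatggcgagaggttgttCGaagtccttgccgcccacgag
Hspa12a: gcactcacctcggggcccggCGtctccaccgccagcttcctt
1600014C10Rik: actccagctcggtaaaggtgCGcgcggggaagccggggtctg

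Outside promoters the inner dyads higher on F were near Gm26703, Gm32618, Basp1, Sox14 and Erbb4, and those higher on R near Flot2, Gm25352, Bach2, Gm32357 and Dgkz. At Basp1 (chr15:25364441), which encodes a membrane-associated transcriptional cosuppressor, F was 98.4%, 100%, 98.7% and 99% and R was 29%, 8.9%, 22.0% and 29.9%. At Bach2 (chr4:32562383), which encodes a transcriptional repressor of lymphocytes, F was 3.6%, 0%, 1.8% and 0.6% and R was 86.6%, 76.6%, 81.2% and 40.5%. R at Bach2 was lower in 344SQR replicate 2 than in the other 3 tumors, and the strands did not overlap in any tumor. Sox14, Erbb4, Flot2, Bach2, Gm32357 and Dgkz have a cytosine 49 bases from an MspI site, on the last base of a read, and Basp1, Gm26703, Gm32618 and Gm25352 do not.

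Flanking bases gave small but repeatable strand differences at inner dyads. Where the strands of a CpG read ACGG and CCGT, the ACGG strand was higher by 0.218, 0.185, 0.198 and 0.231 points (mean 0.208 ± 0.0203 SD, n = 9978 dyads, exact permutation p = 0.125). Where they read CCGC and GCGG, the CCGC strand differed by -0.200, -0.187, -0.106 and -0.164 points (mean -0.164 ± 0.0418 SD, n = 54376, exact permutation p = 0.125). The GCGA strand was above TCGC by 0.0764, 0.0973, 0.0882 and 0.122 points (n = 13312, exact permutation p = 0.125). In these 3 pairs the strand with a purine before its CpG was the more methylated one in every tumor, and in ACGA with TCGT, the other such pair, it was so in 3 of 4. The exact p of 0.125 is the smallest that 4 tumors can give.

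The first 3 pairs kept their direction at each methylation level, while ACGA minus TCGT averaged -0.0304 points under 20%, with 3 of 4 tumors below 0. At 20 to 80% methylation, ACGG minus CCGT averaged 0.371 points, CCGC minus GCGG -0.497 points and GCGA minus TCGC 0.296 points, all with the same sign in 4 tumors. At 80% or more they averaged 0.390, -0.298 and 0.260 points. The remaining pairs were smaller or mixed: ACGC minus GCGT averaged 0.0547 points (4 of 4 tumors, exact permutation p = 0.125) and CCGA minus TCGG -0.0540 points (4 of 4 tumors, exact permutation p = 0.125). ACGA minus TCGT averaged 0.0683 points with 3 of 4 tumors above 0 (exact permutation p = 0.25). All of these means are under 1 point.

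Transcription orientation showed little. Only dyads inside genes of 1 orientation entered, so promoter dyads upstream of a start and outside any gene body were left out. The strand with the transcript's sequence minus the other was 0.0731, 0.0776, 0.0573 and 0.0956 points over 89369 promoter dyads (mean 0.0759 ± 0.0158 SD, exact permutation p = 0.125) and was positive in every tumor. Inner promoter dyads gave 0.0366, 0.0426, 0.0231 and 0.0646 points, and MspI sites 0.231, 0.229, 0.205 and 0.230 points. In exons the values were 0.0337, -0.209, -0.0513 and -0.138 points (n = 17814, exact permutation p = 0.25), with 344SQP replicate 1 apart from the others in sign. Inner exon dyads gave -0.0149, -0.246, -0.107 and -0.155 points, negative in all 4 tumors (exact permutation p = 0.125). In introns they were -0.0349, -0.0271, -0.149 and -0.0163 points (n = 20078, exact permutation p = 0.125), and without read-end dyads their mean was -0.0189 points with 1 tumor below 0.

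The strand difference of single dyads seldom depended on the line. The edgeR interaction of strand with line called 3 of 95272 dyads (0.00315%), against 4211 (4.42%) at an unadjusted p under 0.05. Without 344SQP replicate 1 the test called 31, and without 344SQR replicate 2 it called 1. None was called when dyads in the top 0.1% of coverage were left out, where 4291 had an unadjusted p under 0.05, or at equal depth, where 2728 did. Of 5342 dyads that were lower in 344SQR by 20 points or more on F, 3598 were also lower by 20 points or more on R, counting noise included.

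The 3 called dyads have extreme and uneven coverage. Of these, 2 lie 12 bases apart in an intron of Cdk8, a kinase of the Mediator complex, at chr5:146261047 and chr5:146261059. At chr5:146261059, F was 32.0%, 50.0%, 26.2% and 46.7% on 12808 to 22270 reads, while R was 89.3%, 94.0%, 66.3% and 65.8% on 75 to 260 reads. F minus R was -57.3, -44.0, -40.1 and -19.1 points, and the lines differed by 2.32 in log2 odds (edgeR interaction, adjusted p = 0.000728). R was lower in both 344SQR tumors, F did not separate the lines, and the read ratio of the strands was far from 1 in all tumors. The other one, in AY036118 and CT010467.1 at chr17:39848583, had F at 32.4%, 46.1%, 30% and 50.5% on 10185 to 12044 reads and R at 0%, 2.8%, 16.7% and 40% on 28 to 170 reads.

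Below the threshold, the dyads with the smallest p in each direction included 3 read-end dyads, near Sdr16c6, Gm7328 and Gm10754. At Sdr16c6 (chr4:4096881), R was 96.5% and 94.5% in 344SQP and 57% and 43.7% in 344SQR, while F was 5.3%, 3.2%, 5.9% and 8.8% (edgeR interaction, adjusted p = 0.457). At Gm10754 (chr10:98045864), F was 93.8%, 96.5%, 71.3% and 58.9% and R was 3.9%, 6.1%, 5.1% and 9.7% (edgeR interaction, adjusted p = 1). A lower level in 344SQR was thus visible on the strand away from the read end and absent on the read-end strand. Cacng3, Elfn2, Fasn, Sipa1l2, Fzd3, Tcf7l2 and 2010300C02Rik were the others of this group, all at an adjusted p over 0.5 in edgeR's interaction test.

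At Elfn2 (chr15:78718490), a promoter dyad with 109 to 358 reads per strand, F rose from 13.2% and 11.7% in 344SQP to 38.7% and 52.0% in 344SQR, whereas R was 19.5% and 12.1% against 15.6% and 2.5%. At Cacng3 (chr7:122670972), an MspI site in the promoter of a calcium channel subunit, F minus R was -28.3 and -34.8 points in 344SQP and 8.6 and 28.2 points in 344SQR. The strand difference did not overlap between the lines at either dyad, which the choice by smallest p favours. Neither passed the adjusted threshold (edgeR interaction, adjusted p = 0.822 and 0.535).

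Promoters of the methylation machinery were mostly low on both strands, except Uhrf2 at 57.5%, 77.2%, 56.6% and 82.0%. Of 14 genes, 10 had dyads, and 7 of 76 tested dyads were called (9.21%, against 4.79% of all tested promoter dyads). The median absolute mean difference over all dyads of the list was 0.338 points, against 0.5 over all promoter dyads. Dnmt1, the maintenance methyltransferase, had 11 dyads at 2.33%, 2.01%, 2.60% and 2.14% and no call. Dnmt3b and Tet2 had no call either, at mean levels of 0.983% to 1.59% and 0.933% to 1.39%. At Uhrf1, the reader of hemimethylated CpGs, both called dyads were at the ends of a fragment with sites 49 bases apart: F and R were 38.3% and 4.4%, 41.0% and 4.3%, 42.3% and 0.8%, and 45.9% and 1.8% at chr17:56302816. At the other end, chr17:56302865, F was 5.3%, 4.2%, 7.9% and 3.7% and R was 29.7%, 40.2%, 29.1% and 33.0%.

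Hells and Tdg had no called dyad either, and 4 further members had 1 or 2 each. At the Dnmt3a MspI site chr12:3891626, F was 17.8%, 28.2%, 30.1% and 64.2% and R was 61.9%, 70.0%, 75.0% and 100%, so R was higher in each tumor by 35.8 to 44.9 points (edgeR adjusted p = 0.00130). R rested on 21 to 35 reads at that site, against 118 to 156 on F, and the next MspI site to the left was 13 bases away. Dnmt3a encodes a de novo methyltransferase. At an inner dyad of Tet3 (chr6:83456219), a gene for a methylcytosine dioxygenase, F was 0% in all tumors and R was 11.2%, 22.1%, 14.8% and 15.1%, with F on the last base of its read. Uhrf2 had 1 call, with F minus R at -20.1, -4.4, -20.6 and -15.9 points, and Usp7, whose product is a deubiquitinase that binds UHRF1, had 2 of -5.5 and 9.85 points, the last at a read-end dyad.

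Imprinted genes are useful here because 1 parental copy is methylated on both strands and the other on neither, which puts both strands near the middle of the scale. Of 22 genes, 12 had promoter dyads, and 31 of their 134 dyads were in the class of 40 to 60%. At Plagl1, a zinc finger gene expressed from the paternal copy, 12 dyads averaged 52.7%, 51.3%, 54.5% and 60.1% on F and 51.4%, 46.4%, 52.5% and 53.0% on R, with no call among 12 tested. At chr10:13091072 in Plagl1, F was 55.5%, 48.5%, 53.2% and 54.0% and R was 51.5%, 45.4%, 51.9% and 49.5%. At that dyad both strands stayed near the middle in each tumor and the lines overlapped. Over the 12 dyads the lines did not overlap on either strand, with 344SQR the higher, and at chr10:13090887 344SQR replicate 2 had F at 70.1% and R at 42.2%.

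At Igf2r, 9 dyads averaged 41.0%, 52.0%, 43.6% and 49.7% over both strands. Inner dyads differed between the strands in both directions, as at chr17:12769809 with F at 39.5%, 57.4%, 38.4% and 57.9% and R at 46.8%, 50.0%, 50.8% and 47.2%, so that F minus R was negative in replicate 1 and positive in replicate 2 of both lines. The MspI site chr17:12769835, a read-end dyad 48 bases from its neighbour, had F at 3.6%, 4.9%, 4.7% and 9.7% and R at 53.8%, 58.2%, 53.1% and 50.9% (edgeR adjusted p = 5.2e-07). The read-end strand was thus nearly bare, while the 7 dyads of Igf2r away from these ends had both strands between 37.9% and 65.4%. Its partner at the other end, chr17:12769787, had F above R by 12.0, 24.3, 9.9 and 18.1 points and was not called (edgeR adjusted p = 0.0919).

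Grb10, an adaptor of the insulin receptor, had 9 dyads at 33.6%, 55.6%, 45.0% and 76.1% and no call; replicate 2 of each line was higher than replicate 1. Gnas, which encodes a G protein subunit, had 2 calls of -3.98 and -6.18 points, and Inpp5f had 1 of 8.5 points. In all, 4 of 93 tested dyads of imprinted genes were called (4.3%). H19, Igf2, Peg3, Zrsr1, Peg13, Rasgrf1 and Nap1l5 had no called dyad among 1 to 29 tested each. The share called was close to that of all tested promoter dyads.

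BMP pathway genes had dyads in 22 of 24 promoters, with 11 of 150 tested dyads called (7.33%, against 4.79% of all tested promoter dyads). The ligand Bmp7 had a single dyad read on both strands, an MspI site at chr2:172939939, with F at 24.8%, 47.6%, 13.8% and 20.4% and R at 17.2%, 70.1%, 4.3% and 4.8%. Both strands were lower in the 344SQR tumors than in the 344SQP tumors, without overlap. F minus R was 7.6, -22.5, 9.5 and 15.6 points, with 344SQP replicate 2 opposite to the rest, and was not called (edgeR adjusted p = 0.773). On F the dyad had 129 to 167 reads and on R 77 to 116.

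Among the other ligands and antagonists, Nog had the widest difference. At its MspI site chr11:89302392, F was 0% in each tumor on 28 to 38 reads and R was 40%, 65.3%, 47.2% and 61.5% (edgeR adjusted p = 2.85e-05). Nog encodes noggin, which binds BMPs outside the cell; its 32 dyads averaged 10.9%, 19.1%, 16.2% and 26.4%. Fst, the gene of follistatin, had 2 read-end calls of 8.9 and -5.12 points at the ends of 1 fragment, opposite in sign. Grem1, which encodes another antagonist, had 8 dyads at 14.1%, 21.2%, 24.6% and 44.6% without a call. Among receptors, Acvr1 had 4 calls and Acvr2b 1, at dyads where 1 strand was at most 1.5% in each tumor, and Bmpr1a, Bmpr1b and Bmpr2 had none; 1 of the Acvr1 calls, at chr2:58566818, was a read-end dyad. Smad7, which encodes an inhibitory SMAD, had 3 calls.

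Markers of other cell types gave few dyads. Epithelial and lung adenocarcinoma markers had 27 dyads in 5 of 9 genes, with none of 25 tested called (4.79% of all tested promoter dyads were). Nkx2-1, a lung lineage factor, averaged 8.39%, 12.6%, 14.1% and 18.03%, and Epcam 6.65%, 8.1%, 8.55% and 10.7%, while Cldn4 (28.2%, 24.7%, 26.4% and 14.2%), Cdh1 (1.94%, 1.62%, 1.08% and 1.69%) and Krt18 (10.6%, 6.7%, 6.75% and 14.2%) were not higher in both 344SQR tumors than in both 344SQP tumors. Stromal and endothelial markers had 7 dyads in Col1a2 and Kdr; none of these was called. With so few dyads, the part of host cells in the strand differences was not tested. Housekeeping genes had 70 dyads at 1.70%, 1.89%, 1.76% and 1.904% on average, with 1 of 24 tested called (4.17%), in Ppia. Lists of this size allow no contrast with the share over all tested promoter dyads. These counts of 0 come from edgeR's test over all dyads; at the dyad with the largest difference in each epithelial gene the edgeR adjusted p was 0.337 to 0.803.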

How the data were processed

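RRBS of 4 tumors was analysed, 2 of line 344SQP and 2 of line 344SQR. Per the file headers, the authors' deposited files list, for each cytosine and strand, the coverage as counts of reads and the share of C and of T as a percent. The authors trimmed reads with Trim Galore 0.4.1 and cutadapt 1.9.1, aligned them to mm10 with Bismark and Bowtie 1.1.2; the deposited tables are in methylKit format. Counts of methylated reads were rebuilt from these columns to the nearest whole read.

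Dyads with at least 20 reads per strand in each tumor were kept, and the reference was CG at all 185156 dyads with 10 reads. Summed autosomal coverage was 114884901, 136525741, 158029080 and 172601241 reads over cytosines. Promoters (1000 bp before to 500 bp after a start) came from GENCODE release M 21. Strands were compared with edgeR 4.0.16 (R 4.3.3, limma 3.58.1; quasi-likelihood test, Benjamini-Hochberg adjustment, tumors as blocks), and a strand by line term tested the lines. Other steps used Python 3.11.15, numpy 2.4.6, pandas 2.3.3 and scipy 1.17.1. Exact permutation tests used tumors as units. Code was tested on simulated data.

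Named dyads were, in promoters and outside them, the 5 per direction with the largest mean difference among those called, with 1 sign in all tumors and 20 points or more, at least 10 kb apart, off chromosome 18 and outside the top 0.1% of coverage; line-dependent dyads were those called, and 5 per direction by smallest p. The Bmp7 promoter and list genes with a called dyad were named too. Members, gene lists and rules were chosen with earlier results of these data known. Alternatives covered the coverage minimum, depth, filter, test, MspI sites, the replicate block and each tumor left out in turn.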

Additional observations from a re-analysis of the deposited data

Results flagged for a closer look

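The strand difference differed between the lines at 3 dyads by edgeR's interaction term of strand with line, 2 in Cdk8 and 1 in AY036118 and CT010467.1. All had coverage far higher on F than on R.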

How the results depend on the processing

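Of 240 alternative values of 22 results, 208 kept their direction and size, 27 moved and 5 changed sign; the causes were not tested except where the alternative leaves dyads or tumors out. Among 52 named results, 470 of 480 values held.

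The line difference in excess SD (-0.560) ran from -1.25 to 0.131 with 1 tumor left out, the last without 344SQP replicate 2. The line difference in mean F minus R (0.00227) was -0.00657 at equal depth, -0.00458 at MspI sites alone, -0.00869 without 344SQP replicate 1 and -0.00180 without 344SQR replicate 1, and at most 0.0132 with another tumor left out. With 1 tumor left out the sign changed at Cacng3 (-18.2 to 2.83, and 0.667 without 344SQP replicate 1), Fasn (-3.5 to 1.33) and Tcf7l2 (-0.333 to 1.07, and -0.2 without 344SQP replicate 1). The mean signs at 2010300C02Rik (0.175) and Bmp7 (2.55) also rest on single tumors. F minus R at 2010300C02Rik was 0, 8.2, -4.7 and -2.8 points, above 0 in 344SQP replicate 2 alone, and Bmp7 had tumors on both sides of 0.

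Excess SD by class over all dyads, mean of the tumors, was 2.70, 10.1, 15.1, 8.58 and 4.12 points from low to high methylation. It was 1.71, 6.88, 7.63 and 7.11 points without MspI sites and 5.11, 14.8, 24.5 and 10.5 points at MspI sites alone, up to 80%. Without read-end dyads, an alternative chosen after seeing the data, it was 7.58 at 20 to 40% and 9.29 at 40 to 60%. At a minimum of 10 reads it was 16.4 at 40 to 60% and 9.92 at 60 to 80%; at 50 reads it was 13.0, 7.12 and, at 80% or more, 3.29, and the read-end difference was -13.9.

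Asymmetric dyads numbered 1091 without MspI sites, 1594 without read-end dyads, 15711 by the Mantel-Haenszel test and 2202 to 3869 with 1 tumor left out. Line-dependent dyads numbered 5 with the replicate block, 1 to 31 with 1 tumor left out, and 0 without the top 0.1% of coverage, at equal depth and at MspI sites alone, where edgeR's unadjusted p was under 0.05 at 4291, 2728 and 1715. With 1 tumor of a line, edgeR assumes that it varies like the other line.

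The replicates shared a number across lines. Deviations of paired replicates correlated at 0.0362 for the strand difference and 0.697 for mean methylation; with pairs as blocks the line difference in mean absolute difference is -0.510 as without them, by construction, and it was -0.369 and -0.651 within the pairs. Depth limits single dyads: a strand with 20 reads resolves steps of several points.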
